A study of Mus musculus with 8 samples.

Results

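The endothelial and angiogenic genes Pecam1, Cdh5, Kdr, Flt1, Tek, Tie1, Eng, Vwf, Egfl7 and Vegfa were followed through all 8 RNA-seq libraries of a study of mouse subcutaneous fat. They were chosen by name, and each of the 10 symbols matched 1 row among the 18022 genes of the count table. The 4 KO libraries came from mice written Pkd1adipo delta/delta, in which the study deleted the floxed gene in adipocytes, and the 4 WT libraries from Pkd1(flox/flox) mice, so the WT mice carry the floxed gene unrecombined. The kinase deleted, protein kinase D1, is written Pkd1 in the labels and has the gene symbol Prkd1. All mice were C57BL/6J back-crossed 4 times. Neither the promoter behind the recombinase nor the age of the mice is stated in the labels. KO and WT stand for libraries labelled so, each from a mouse of its own, with their number, as in KO3. CPM stands for the usual depth-scaled read count, here after TMM scaling, which corrects for differences in library composition.

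Endothelial cells line the capillaries that supply fat. Vegfa is the main growth factor for them and in fat is made by adipocytes among other cells. It signals through the receptor tyrosine kinase Kdr, while Flt1 binds the same ligand tightly and acts in large part as a decoy. Tek is the receptor for angiopoietins and Tie1 its relative without a known high-affinity ligand of its own. Eng is a co-receptor for ligands of the BMP and TGF-beta family, Pecam1 and Cdh5 are adhesion molecules of the junctions between endothelial cells, Vwf is a clotting protein stored in endothelium and platelets, and Egfl7 is a secreted endothelial matrix protein. In tissue RNA, fewer cells of a type and less RNA per cell cannot be told apart. More than one cell type contributes to Vegfa, Vwf and Pecam1, and the cell source of the others was not tested.

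By the study's design text, KO and WT fat were compared for changes in gene expression after the deletion. None of the 9 endothelial genes, all members but Vegfa, passed the test against the spread between libraries. Their summed level was 1156 ± 118 CPM in KO libraries and 1194 ± 51.6 CPM in WT libraries (SD, n = 4 each). Their log2 fold changes, KO over WT, lay between -0.18 for Kdr and 0.13 for Flt1, with 4 above 0 and 5 below. Vegfa had the largest value of the 10, a log2 fold change of 0.30, and it did not pass the adjusted threshold either. The edgeR quasi-likelihood test over 14556 genes gave an adjusted p of 0.998 for each of the 10. That test called 0 of 14556 genes (0%) at an adjusted p under 0.05, and 653 genes (4.49%) at an unadjusted p under 0.05, 2.71% of all tested genes being higher in KO and 1.77% lower. Vegfa was the 1 member of the 10 among them. Other tools called 36 (DESeq2), 34 (edgeR likelihood ratio test) and 0 genes (limma-voom), and the quasi-likelihood test called 50 without KO3; none of these calls was a member.

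The libraries held between 2617755 and 2873457 reads, and the members between 173 (Tek in WT1) and 1087 (Vegfa in KO3), so all 10 passed the count filter. The targeted gene did not check the labels, with 26.1 to 37.1 CPM of Prkd1 in KO libraries and 26.6 to 33.6 CPM in WT libraries. Markers from outside fat varied strongly. With Car3 left out, which fat makes as well, all 22 skeletal muscle markers had log2 fold changes above 0, with a median of 2.83. They summed to 533 to 4349 CPM in KO libraries and 167 to 707 CPM in WT libraries, and KO3 was the KO library inside the WT range. Liver markers summed to 113 to 610 CPM in KO libraries and 144 to 1849 CPM in WT libraries, where WT1 and WT4 were high, and 0 of 11 tested had log2 fold changes above 0, with a median of -2.0. Cldn5, Esam and Emcn, further defining endothelial markers that were not among the 10, were present in every library, with at least 45.7, 57.8 and 15.9 CPM. Cldn5 varied most of these, from 45.7 CPM in KO2 to 237 CPM in WT2.

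Vegfa had 325.2, 346.7, 386.5 and 302.7 CPM in KO1 to KO4, against 249.2, 238.8, 291.6 and 323.6 CPM in WT1 to WT4. The groups overlapped, because WT4 lay inside the range of the KO libraries, close to KO1. The means were 340 ± 35.7 CPM in KO and 276 ± 39.2 CPM in WT libraries (SD, n = 4 each). In log2 terms Vegfa differed by 0.30 ± 0.14 (SE), or 1.23-fold, and the 95% interval ran from 0.01 to 0.60. The edgeR quasi-likelihood test gave an unadjusted p of 0.045 and an adjusted p of 0.998, and an exact two-sided permutation of the labels 0.0571. With each library left out, the value lay between 0.24 without KO3 (unadjusted p = 0.131 in the same edgeR test) and 0.39 without WT4 (0.0225). The unadjusted p was above 0.05 for 6 of the 8 omissions, and also with edgeR's likelihood ratio test (0.0577), limma-voom (0.084), one common dispersion (0.143) and the replicate block (0.0816). It was under 0.05 with DESeq2 (0.0346). The edgeR quasi-likelihood test gave 0.0371 with library totals as the only scaling and 0.0459 with RLE scaling. That test gave 0.0466 without a count filter and 0.045 with a mean count of at least 10. Vegfa was highest in KO3, where the muscle sum was inside the WT range, and in edgeR's quasi-likelihood test its log2 fold change was 0.50 with the muscle sum including Car3 as a covariate (unadjusted p = 0.0129). It was 0.54 with the sum without Car3, an alternative chosen after seeing the data (unadjusted p = 0.0229). Car3 made up 60.6% to 97.6% of the sum that includes it, and its own log2 fold change was -0.04. In either sum KO1, KO2 and KO4 lay above all WT libraries, so label and covariate overlapped only at KO3. How far the covariate values depend on KO3 was not tested.

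Kdr had 90.9, 126, 142 and 133 CPM in KO1 to KO4, against 116, 145, 143 and 152 CPM in WT1 to WT4. KO1 was the lowest library, below all 4 of WT, and the other KO libraries lay inside the WT range. The log2 fold change was -0.18 ± 0.15 (SE), with a 95% interval from -0.50 to 0.14, and it lay between -0.26 without WT1 and -0.06 without KO1. Flt1 had 103, 136, 146 and 108 CPM in KO1 to KO4, against 113, 97.9, 117 and 124 CPM in WT1 to WT4. KO2 and KO3 stood above all WT libraries, and KO1 and KO4 stood within their range. Its log2 fold change was 0.13 ± 0.14, with an interval from -0.17 to 0.42, and lay between 0.03 without KO3 and 0.20 without KO1. With the muscle sum including Car3, and made mostly of it, as a covariate Flt1 was at 0.39 (edgeR quasi-likelihood test, unadjusted p = 0.028). Without Car3 in the sum it was at 0.40 (same test, 0.0715). Flt1, too, was highest in KO3, the KO library with a muscle sum inside the WT range.

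The ligand and its receptor were also set against each other within each library, which does not depend on scaling. The ratio of Vegfa to Kdr was 3.58, 2.76, 2.72 and 2.28 in KO1 to KO4, against 2.14, 1.64, 2.03 and 2.13 in WT1 to WT4. The lowest KO library stood above the highest WT library. On the log2 scale the ratio was 1.48 ± 0.27 in KO and 0.98 ± 0.18 in WT libraries (SD, n = 4 each), a difference of 0.50. Permuting the labels exactly gave a two-sided p of 0.0286, which no split of 8 libraries into equal groups can go below. Adjusted over the 3 ratios compared, p was 0.0857. With 4 libraries in each group a single ratio at the floor cannot reach a lower adjusted p, so this test could not have passed 0.05 for it alone. The ratios were chosen with earlier results of these data known. Vegfa and Kdr also had the highest and lowest log2 fold changes of the 10 genes, at 0.30 and -0.18. The separation of this ratio and its p are therefore not evidence apart from those values. The ratio of Kdr to Flt1 was 0.879, 0.927, 0.971 and 1.23 in KO1 to KO4, against 1.03, 1.48, 1.23 and 1.23 in WT1 to WT4. In 3 of the KO libraries Flt1 had more reads than Kdr, and in all WT libraries Kdr had more. The log2 difference of this ratio was -0.31 (exact permutation p = 0.114, adjusted 0.171), and KO4 overlapped WT.

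**Figure D1:**
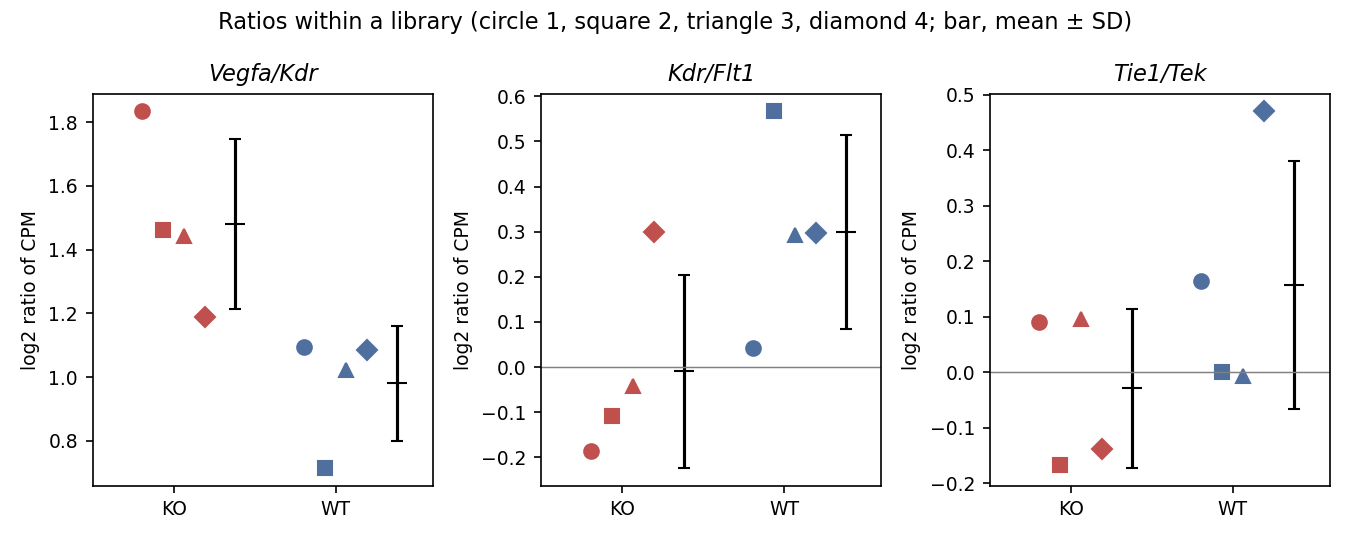
log2 ratios of CPM within each library for Vegfa to Kdr, Kdr to Flt1 and Tie1 to Tek, with 4 KO libraries on the left and 4 WT libraries on the right of each panel, and bars for mean ± SD. The Vegfa to Kdr ratio separates the groups, at 1.19 to 1.83 in KO and 0.72 to 1.10 in WT libraries, while the other 2 ratios overlap. Vegfa and Kdr had the highest and lowest log2 fold changes of the 10 genes.

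The sequence before the start sites of this ligand and its 2 receptors is shown because the ratios above are between them. Each is the 250 bases upstream of a RefSeq start site in GRCm38.p6, a build other than that of the counts, read 5′ to 3′ on the strand of the gene, all of them minus strand. Capitals mark AGGAAG, a form of the binding core of ETS factors, and ACGTG, a form of the core of the hypoxia response element, each searched on both strands. Vegfa lies at chr17:46032378-46032627, Kdr at chr5:75978456-75978705 and Flt1 at chr5:147726012-147726261.
Vegfa: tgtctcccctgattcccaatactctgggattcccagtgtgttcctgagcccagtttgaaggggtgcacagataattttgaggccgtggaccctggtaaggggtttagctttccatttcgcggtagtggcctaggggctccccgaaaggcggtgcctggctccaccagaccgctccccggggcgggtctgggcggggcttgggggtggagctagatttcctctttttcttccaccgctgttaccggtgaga
Kdr: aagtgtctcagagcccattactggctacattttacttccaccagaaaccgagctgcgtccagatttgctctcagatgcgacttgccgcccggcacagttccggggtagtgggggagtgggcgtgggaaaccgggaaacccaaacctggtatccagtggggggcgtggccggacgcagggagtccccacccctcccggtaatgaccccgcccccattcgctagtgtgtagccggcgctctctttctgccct
Flt1: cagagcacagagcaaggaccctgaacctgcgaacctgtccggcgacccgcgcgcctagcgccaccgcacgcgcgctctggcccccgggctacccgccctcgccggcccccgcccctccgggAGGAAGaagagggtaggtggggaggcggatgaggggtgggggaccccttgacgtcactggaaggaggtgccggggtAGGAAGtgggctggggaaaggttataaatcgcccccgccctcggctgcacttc
The Flt1 window held 2 matches of AGGAAG, and the Kdr and Vegfa windows held 0 of either exact sequence. RefSeq lists 2 start sites for Vegfa, and the window before the second, not shown, held 1 match of ACGTG. That window, chr17:46025164-46025413, lies downstream of the first start site, so its match is not in sequence upstream of the whole gene. Sequence farther than 250 bases from a start site was not searched, and neither were other forms of these cores. Among all 32851 RefSeq windows of this length, 29.5% held AGGAAG and 16.6% held ACGTG. RefSeq windows were found for 7 of the 10 members. Among the others of these, Eng had 2 matches of AGGAAG and Tie1 had 1, while Tek had 0. The 3 start sites of Egfl7 had 3, 1 and 0.

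Tek had 66.9, 71.7, 81.4 and 73.5 CPM in KO1 to KO4, against 63.5, 78.4, 69.7 and 68.6 CPM in WT1 to WT4. The groups overlapped over nearly their whole range, and the log2 fold change was 0.07 ± 0.12 (SE; 95% interval from -0.19 to 0.32), between 0.01 without KO3 and 0.13 without WT2. Tie1 had 71.4, 63.8, 87.1 and 66.7 CPM in KO1 to KO4, against 71.2, 78.4, 69.3 and 95.2 CPM in WT1 to WT4. WT4 was the highest library. The log2 fold change of -0.12 ± 0.14 lay between -0.22 without KO3 and -0.02 without WT4. The ratio of Tie1 to Tek was 0.890 to 1.07 in KO and 0.995 to 1.39 in WT libraries, a log2 difference of -0.19 (exact permutation p = 0.229, adjusted 0.229).

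Eng had 112, 92.3, 128 and 101 CPM in KO1 to KO4, against 94.3, 111, 97.2 and 103 CPM in WT1 to WT4. KO2 was the lowest and KO3 the highest of all 8 libraries, so the WT values lay inside the KO range. The log2 fold change was 0.10 ± 0.13 and lay between 0.0049 without KO3 and 0.16 without KO2.

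The junction genes were the most abundant of the endothelial set by reads. Pecam1 had 189.1, 202.5, 221.5 and 210.0 CPM in KO1 to KO4, against 212.2, 246.0, 208.0 and 205.7 CPM in WT1 to WT4. Apart from WT2, all WT libraries lay within the KO range. The log2 fold change was -0.08 ± 0.12, with a 95% interval from -0.33 to 0.17, and lay between -0.12 without KO3 and -0.02 without WT2. Cdh5 had 238.4, 241.7, 298.3 and 236.4 CPM in KO1 to KO4, against 268.7, 290.1, 265.6 and 275.0 CPM in WT1 to WT4. KO1, KO2 and KO4 stood below all WT libraries and KO3 above them all. The log2 fold change was -0.12 ± 0.12 with all libraries and lay between -0.20 without KO3 (edgeR quasi-likelihood test, unadjusted p = 0.122) and -0.08 without KO4.

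Vwf, the stored clotting protein, had 75.4, 70.7, 80.0 and 64.2 CPM in KO1 to KO4, against 77.4, 80.8, 69.0 and 74.8 CPM in WT1 to WT4, with a log2 fold change of -0.06 ± 0.12, or -0.11 without KO3 and close to 0 without KO4. Only the lowest library, KO4, lay outside the WT range. Markers of platelets, the other source of Vwf, summed to 37.3 to 46.0 CPM in KO and 37.4 to 51.7 CPM in WT libraries. The sum covers the 5 of 9 listed genes found in the table. Pf4 was its largest part, with means of 24.1 CPM in KO and 28.3 CPM in WT libraries. Only 2 of the 5 passed the count filter, with log2 fold changes of -0.23 for Pf4 and 0.23 for Itgb3. The share of Vwf reads from platelets was not tested.

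Egfl7 had 103, 109, 139 and 143 CPM in KO1 to KO4, against 113, 115, 136 and 130 CPM in WT1 to WT4. The WT libraries lay inside the wider KO range, and the log2 fold change was 0.00 ± 0.14, between -0.07 without KO4 and 0.08 without KO1. Its count is less certain than those of the other members. In GENCODE M21 its exons share 11.2% of their length with other genes, among them Agpat2, an enzyme of triglyceride synthesis on the opposite strand, and Gm20532. The table gives Gm20532 1490, 2048, 1837 and 2701 reads in KO1 to KO4, against 1407, 1431, 2433 and 1995 reads in WT1 to WT4. The summed reads of Egfl7 and Agpat2 were 1481, 1975, 1854 and 2690 in KO1 to KO4, and 1415, 1437, 2438 and 2017 in WT1 to WT4. In all 8 libraries the row of Gm20532 thus differed from that sum by at most 73 reads, and the kit did not mark strand. Egfl7 also hosts a microRNA known for its role in endothelium. Its mature sequence in RefSeq lies inside Egfl7 at chr2:26591402-26591423 on the plus strand of GRCm38.p6 and is shown with the seed, bases 2 to 8, in capitals.
mmu-miR-126a-3p: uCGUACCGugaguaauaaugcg
Poly(A) libraries do not measure the mature microRNA, and the row Mir126 held 0 to 7 reads per library. Eng shares 1.51% of its exon length with Fpgs, and the other 8 members share none.

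**Figure D2:**
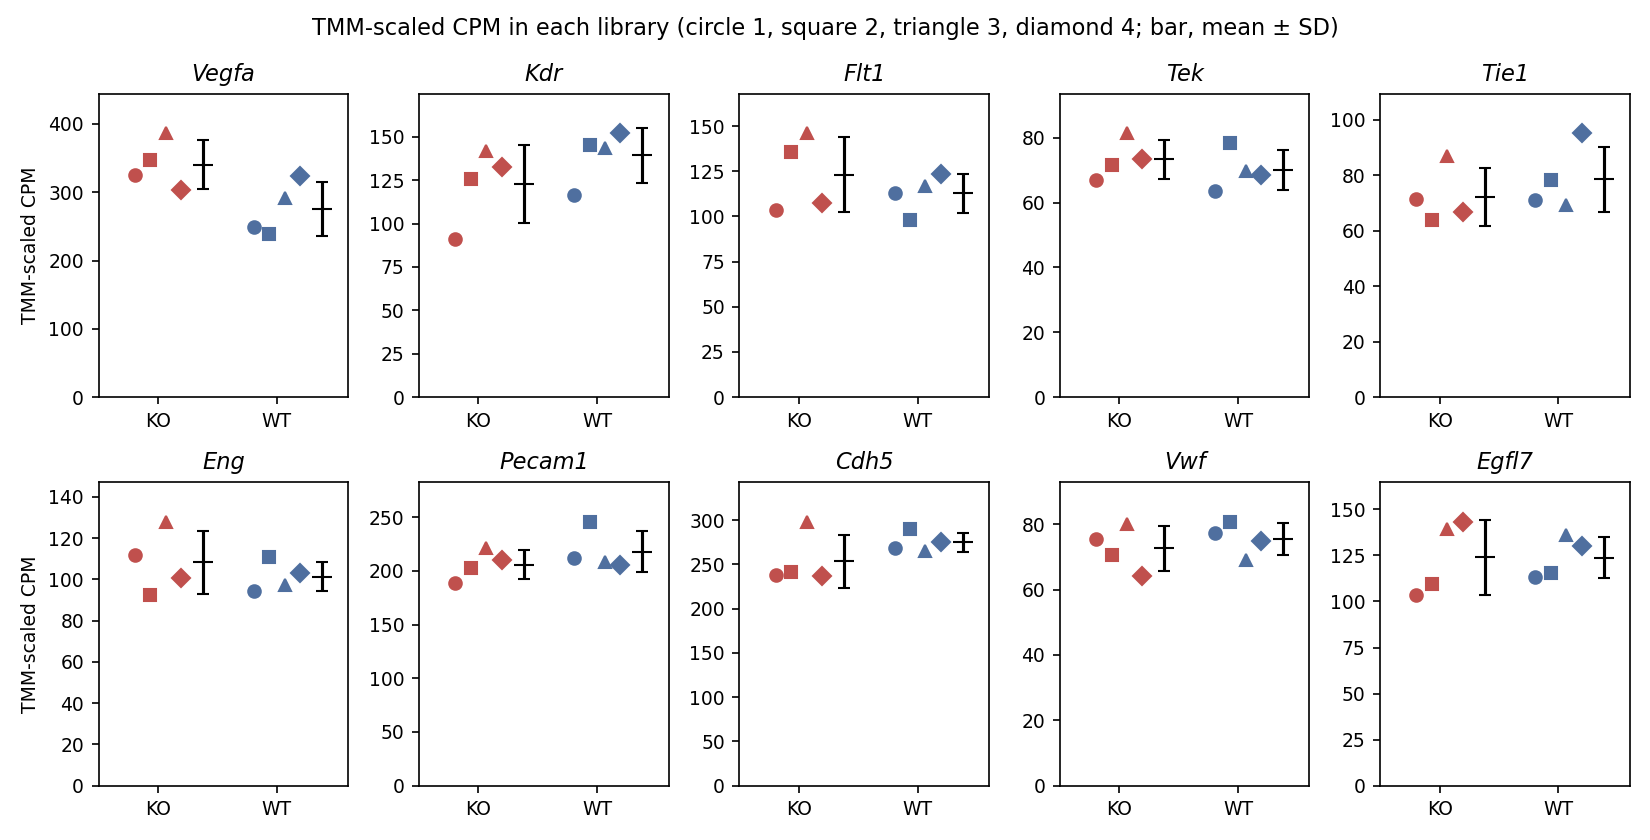
TMM-scaled CPM of the 10 genes in each library, with KO libraries on the left and WT libraries on the right of each panel and bars for mean ± SD (n = 4 each). Each panel starts at 0. The groups overlap for all 10 genes, and Vegfa has its 2 lowest values in WT1 and WT2.

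The groups overlapped for all 10 members, where 425 of the 14556 tested genes (2.92%) had groups that did not, 1.53% of all being higher in KO. Over all tested genes the median log2 fold change was 0.00, with 50.1% above 0, and the median of the 9 endothelial genes was -0.06. The standard errors of the members lay between 0.12 and 0.15, against a median of 0.19 over all tested genes. Over these 9 genes, the 95% intervals reached from 0.708-fold (Kdr) to 1.34-fold (Flt1). The authors' deposited table gave 436 of 18022 genes (2.42%) an adjusted p under 0.05, with 0 members among them. Vegfa stood there at a log2 fold change of 0.30 with a p of 0.143. An exact test with one common dispersion, run here over all 18022 genes, also called 436. It gave Vegfa the same log2 fold change and p, so the 2 are not separate pieces of evidence.

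**Figure D3:**
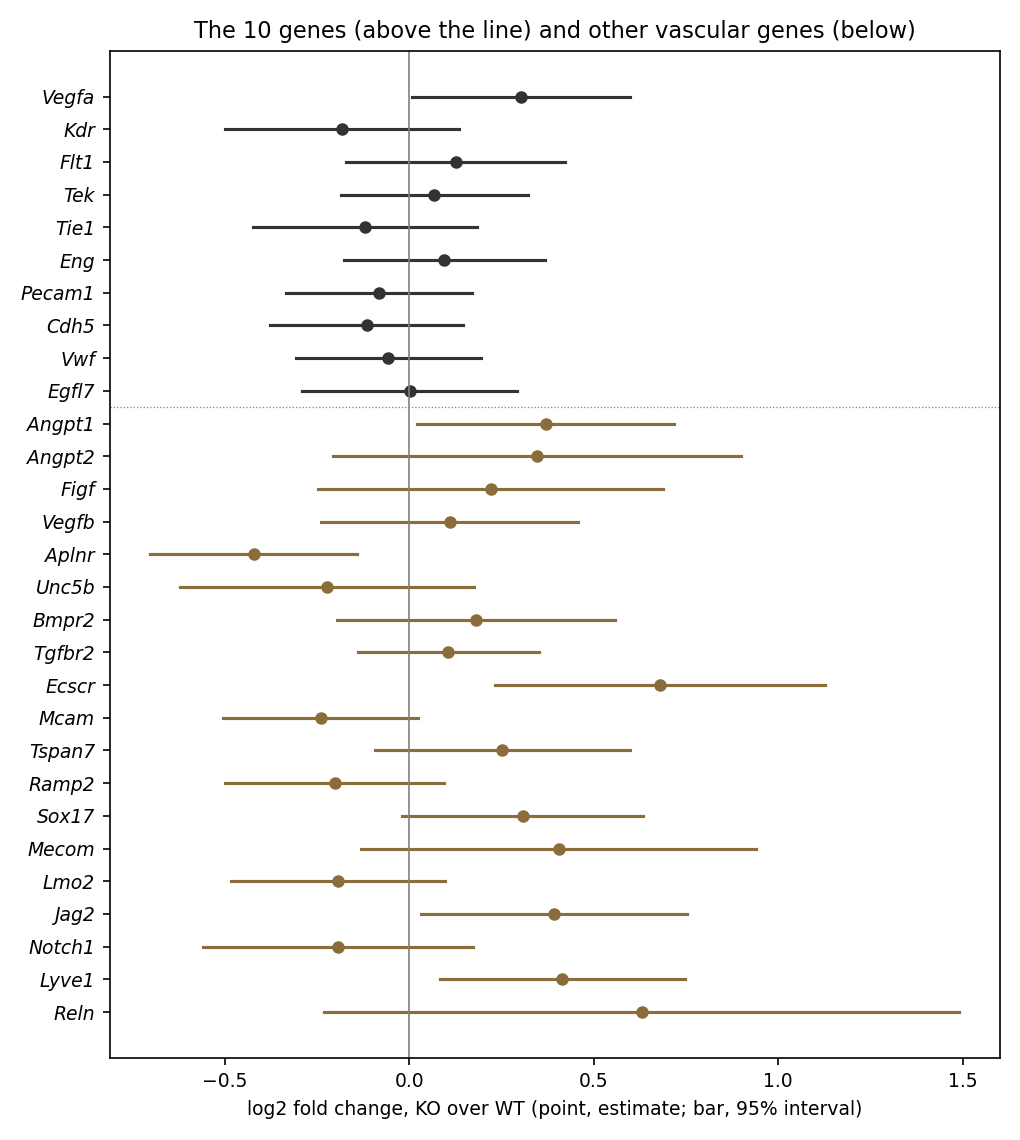
log2 fold changes, KO over WT, from the edgeR quasi-likelihood fit, with 95% intervals, for the 10 genes above the dotted line and 19 other vascular genes below it. Among the 10, the interval of Vegfa alone excludes 0 before adjustment, reaching from 0.01 to 0.60. The 19 below were picked from their lists for a small p in this same fit, and the intervals of 5 exclude 0. In that fit 5 of all 65 genes tested in those lists (7.69%) had an unadjusted p under 0.05, against 4.49% of all genes.

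KO3 held the highest value of 4 of the 9 endothelial genes (Cdh5, Flt1, Tek and Eng) and the lowest of none, whereas KO1 held the lowest of 3 (Pecam1, Kdr and Egfl7) and the highest of none. The summed level of the 9 was 1051, 1114, 1324 and 1135 CPM in KO1 to KO4, against 1130, 1243, 1175 and 1228 CPM in WT1 to WT4. Over the 8 libraries, Pearson's r between pairs of these 9 genes had a median of 0.31 and a range from -0.38 to 0.74 over 36 pairs, 33 of them positive. All pairs share the scaling of their library, so these values are a description. The muscle sum was lowest among KO libraries in KO3, at 533 CPM, and stood at 3964, 2483 and 4349 CPM in KO1, KO2 and KO4, where the sum of the 9 genes was lower. With that sum as a covariate, chosen after seeing the data, the log2 fold changes of Pecam1, Cdh5, Kdr, Tie1 and Vwf lay above 0, at 0.024, 0.115, 0.079, 0.272 and 0.110. Those of Flt1, Eng, Tek and Egfl7, already above 0, were 0.40, 0.33, 0.22 and 0.10. With the sum that includes Car3, Pecam1 was at -0.03, Cdh5, Kdr, Tie1 and Vwf at 0.038, 0.016, 0.093 and 0.026, and Flt1, Eng, Tek and Egfl7 at 0.39, 0.22, 0.16 and 0.12. In neither fit did a member pass the adjusted threshold. Among KO libraries KO3 alone had a muscle sum inside the WT range, so label and covariate overlapped little. The part of muscle tissue in the lower sums was not tested.

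**Figure D4:**
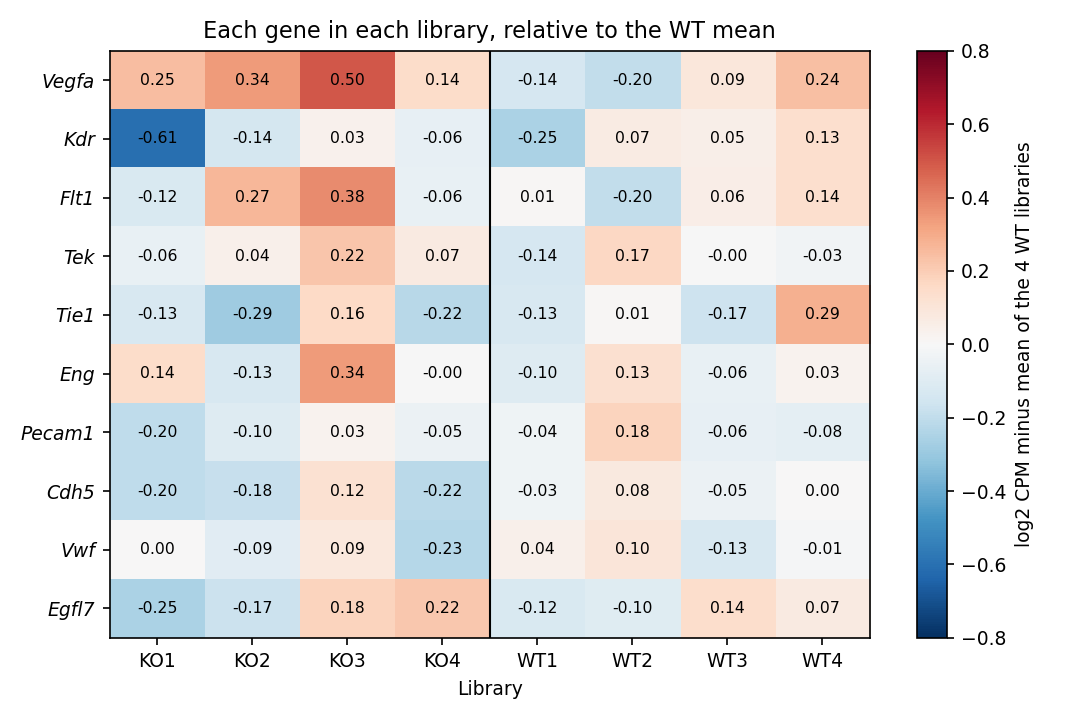
log2 CPM of each gene in each library minus the mean of the 4 WT libraries, with KO1 to KO4 left of the line and WT1 to WT4 right of it, red above and blue below that mean. KO3 is above the WT mean for all 10 genes, Kdr in KO1 is the lowest cell at -0.61, and Vegfa is above it in all 4 KO libraries and in WT3 and WT4.

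Within a label, some members varied hardly more than counting alone would give. The coefficient of variation of Vwf was 9.32% in KO and 6.62% in WT libraries, against 7.01% expected from counting reads. For Tek it was 8.21% in KO and 8.84% in WT libraries, against 7.12% from counting. Kdr varied more, at 18.2% in KO and 11.3% in WT libraries against 5.27% from counting, and Cdh5 at 11.8% in KO and 3.98% in WT libraries against 3.71%.

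Levels were ordered by CPM per kilobase of union exon length, the total length of all annotated exons of a gene in GENCODE M21. Vegfa had 79.4 ± 8.33 CPM per kb in KO and 64.4 ± 9.1 CPM per kb in WT libraries, and Cdh5 60.4 ± 7.10 in KO and 65.4 ± 2.6 CPM per kb in WT libraries (SD, n = 4 each). These 2 overlapped in range, with Vegfa above Cdh5 in 6 of 8 libraries. Egfl7 and Pecam1 followed at means of 34.6 and 34.0 CPM per kb over all libraries, each above the other in 4 of 8, and then Eng at 25.9 CPM per kb. Tie1, Tek and Kdr lay at 15.3, 15.2 and 14.5 CPM per kb with overlapping ranges, below Eng in every library. Flt1 at 8.74 CPM per kb was below Kdr in all 8 libraries, and Vwf was lowest at 4.61 CPM per kb. Flt1 and Vwf have long exon totals, of 13504 and 16064 bases, so these per-length values depend on which exons fat uses.

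**Figure D5:**
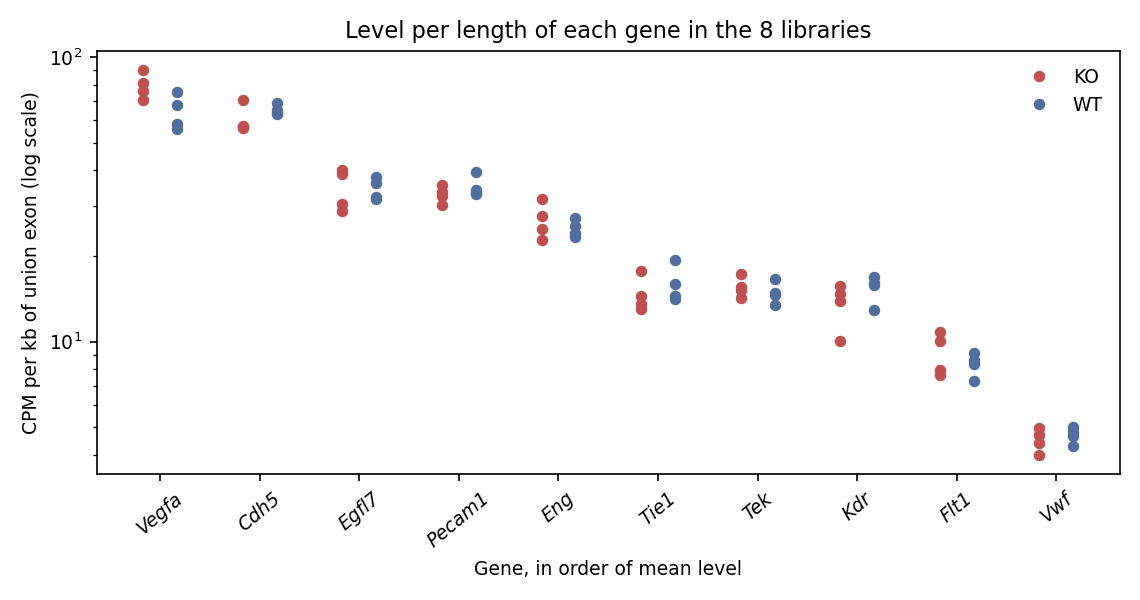
CPM per kilobase of union exon length (log axis) of each gene, in order of the mean over 8 libraries, with KO libraries to the left of WT libraries for each gene. Vegfa and Cdh5 stand highest, Vwf lowest, and the gaps below Cdh5, Eng and Flt1 are the places where neighbouring ranges do not overlap.

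Other genes of the vessel wall were read in 6 lists of ligands, receptors, surface and junction genes, transcription factors, Notch genes and lymphatic markers. Of 65 different genes tested in them, 0 passed over all genes, 35 had log2 fold changes above 0 and 30 below, with a median of 0.04. An unadjusted p under 0.05 was given to 5 of them (7.69%), against 4.49% of all tested genes. The groups did not overlap for 4 (6.15%), against 2.92% of all. Among 6 other ligands, 5 were above 0 with a median of 0.17. Angpt1, the activating ligand of Tek, had 36.8, 32.6, 35.9 and 30.7 CPM in KO1 to KO4, against 19.8, 23.9, 30.7 and 30.6 CPM in WT1 to WT4. WT3 and WT4 lay at about the level of the lowest KO library, and the log2 fold change was 0.37 ± 0.16 (SE; edgeR quasi-likelihood test, adjusted p = 0.998), on exons that share 14.2% of their length with Gm17473. Angpt2, which competes with it at Tek, had 0.35 ± 0.26, Figf, the gene of VEGF-D, 0.22 ± 0.22 and Vegfb 0.11 ± 0.16. Single libraries moved these values, Angpt2 between 0.12 without KO4 and 0.52 without KO1, Figf between 0.04 without KO2 and 0.40 without WT1, and Vegfb between -0.03 without WT1 and 0.23 without WT2.

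Of 12 other receptors and co-receptors, 5 were above 0 and 7 below, with a median of -0.01 and 0 past the threshold. Aplnr, the apelin receptor of endothelium, had 50.0, 54.2, 45.5 and 50.6 CPM in KO1 to KO4, against 78.2, 65.7, 55.8 and 68.9 CPM in WT1 to WT4. All KO libraries lay below all WT libraries, with a log2 fold change of -0.42 ± 0.13 (edgeR quasi-likelihood test, adjusted p = 0.998). It lay between -0.50 and -0.34 with each library left out. Unc5b, a netrin receptor of vessels, had -0.22 ± 0.19, Bmpr2 0.18 ± 0.18 and Tgfbr2 0.11 ± 0.11. Unc5b was -0.09 without KO2 and Bmpr2 0.02 without WT2, and Tgfbr2 was 0.07 without KO2.

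Of 21 surface and junction genes tested, 12 were above 0, with a median of 0.06 and 0 past the threshold. Ecscr, an endothelial surface protein, had 13.6, 14.4, 16.4 and 13.2 CPM in KO1 to KO4, against 8.1, 6.8, 9.3 and 11.7 CPM in WT1 to WT4. The groups did not overlap, the log2 fold change was 0.68 ± 0.21 on 17 to 46 reads, and edgeR's quasi-likelihood fit put its adjusted p at 0.998. Mcam, an adhesion molecule of endothelium and pericytes, had -0.24 ± 0.12, Tspan7 0.25 ± 0.16 and Ramp2, a partner of the adrenomedullin receptor, -0.20 ± 0.14, where Ramp2 shares 33.4% of its exon length with Vps25. Tspan7 was 0.08 without KO1 and Ramp2 -0.12 without WT2.

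Of 14 endothelial transcription factors, 7 were above 0, with a median of 0.03 and 0 past the threshold. Sox17, a factor of arterial endothelium, had 0.31 ± 0.15, Mecom 0.40 ± 0.24, Lmo2 -0.19 ± 0.13 and Klf4, a factor induced by blood flow, 0.15 ± 0.13. Sox17 shares 16.8% of its exon length with Gm37587. Mecom was 0.22 without WT2 and Klf4 0.09 without KO4. Of 9 Notch genes tested, 3 were above 0 with a median of -0.06. The ligand gene Jag2 had 0.39 ± 0.17 without overlap of the groups, at 28.0 to 40.8 CPM in KO and 20.4 to 27.1 CPM in WT libraries, and 0.24 without KO2. Notch1, which shares 9.76% of its exon length with 0610009E02Rik and Gm13568, had -0.19 ± 0.17. The ligand gene Jag1 had 0.12 ± 0.13 and the target gene Hes1 -0.16 ± 0.23. Without WT4, Notch1 was -0.09 and Hes1 -0.0084, and Jag1 was 0.03 without KO2. Of 5 lymphatic markers tested, 3 were above 0 with a median of 0.23. Lyve1, a hyaluronan receptor of lymphatic vessels that some macrophages also carry, had 0.41 ± 0.15, at 29.5 to 43.3 CPM in KO and 22.9 to 28.1 CPM in WT libraries, and 0.28 without KO2. Nrp2, a co-receptor in lymphatic vessels, had -0.01 ± 0.15 and Pdpn, a surface protein of lymphatic endothelium, 0.23 ± 0.27, or -0.0067 without KO1. Reln had 0.63 ± 0.40, and 0.09 without KO1, while Prox1, a defining lymphatic factor, had 0 to 9 reads and was not tested.

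The hypoxia response, which drives Vegfa transcription, had 4 of 14 tested genes above 0, with a median of -0.07 and 0 past the threshold. Its genes with the smallest p were Vhl, which marks the hypoxia-inducible factors for breakdown, at -0.49 ± 0.20 and -0.24 without WT1, and Egln3, an oxygen sensor, at -0.69 ± 0.32 on 6 to 16 reads. Arnt, the partner of the hypoxia-inducible factors, had 0.17 ± 0.13 and P4ha1, a collagen-modifying enzyme, -0.10 ± 0.14, or 0.12 for Arnt without KO1 and -0.04 for P4ha1 without KO4. Of 11 genes of capillary lipid handling, 4 were above 0 with a median of -0.06 and 0 past the threshold. Gpihbp1, which anchors lipoprotein lipase to capillaries, had -0.08 ± 0.14, Cav1, a protein of caveolae, -0.19 ± 0.17, the water channel gene Aqp1 -0.23 ± 0.17 and the fatty acid carrier gene Fabp4, which adipocytes also express, 0.10 ± 0.16. Gpihbp1 was 0.01 without KO4, Cav1 -0.10 without KO3, Aqp1 -0.12 without WT2 and Fabp4 0.01 without WT4. Of 12 pericyte and smooth muscle markers, 8 were above 0 with a median of 0.10 and 0 past the threshold. Des, an intermediate filament that skeletal muscle also makes, had 24.5 to 127.3 CPM in KO and 12.8 to 25.7 CPM in WT libraries and a log2 fold change of 2.10 ± 0.50. With the muscle sum without Car3 as a covariate it was 0.29. Lmod1 had 0.54 ± 0.24 on 12 to 23 reads, Myh11 0.27 ± 0.21 and Acta2 -0.35 ± 0.27. Myh11 lay between 0.12 without KO3 and 0.43 without KO1, and Acta2 between -0.54 without WT3 and -0.05 without WT1. Macrophage markers, whose cells also carry Pecam1, summed to 997 to 1224 CPM in KO and 959 to 1402 CPM in WT libraries, and adipocyte markers to 118155 to 124564 CPM in KO and 110020 to 131498 CPM in WT libraries.

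The genes whose levels followed the 9 endothelial genes most closely over the 8 libraries were sought among 11484 other genes with a mean of at least 10 CPM. Pearson's r with the mean standardised log2 level of the 9 was 0.96 for 9830001H06Rik, 0.93 for Zswim4, 0.93 for U2af2, a splicing factor, 0.92 for Cyp4f13 and 0.92 for Tspan9. These 5 also had their highest value in KO3. Their log2 fold changes lay between -0.10 and 0.03. With 8 libraries and this many genes, r exceeded 0.9 for 20 genes and was under -0.9 for 12, so the list is a description of these libraries.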

How the data were processed

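Poly(A) RNA was isolated with on-column DNase digestion and made into libraries with the NEBNext Ultra RNA kit, per the labels' protocols. That kit does not record strand. FastQC, Bowtie2, edgeR and the build mm9 appear in the submitters' processing notes, with no role or version; for counter and annotation, none is given in the sources used here. Deposited by the authors were unnormalized whole read counts, 1 row an Ensembl gene, and their own comparison, with log2 fold changes, log2 mean levels and p-values under column names of edgeR, per the file headers. Depth was 2617755 to 2873457 reads, and the precision of each level is limited by its count of reads, from 173 upward for the members.

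Columns were assigned to samples through the mouse label, and groups and replicate numbers came from the titles. Nothing but the mouse label marks the libraries as separate animals. Within a label, no library was a copy of another (smallest chi-square per gene 4.45). Pairs of a KO and a WT library were not compared in this way. Counts were scaled by TMM, filtered with filterByExpr, which left 14556 genes, and tested for the label by quasi-likelihood in edgeR 4.0.16 under R 4.3.3 (robust fit), with Benjamini-Hochberg adjustment at 0.05 over all genes. The procedure was checked on simulated data. Dividing a log2 fold change by the root of its F gave the SE. Ratios used log2 CPM with a pseudocount of 0.5 and exact permutation of the labels. Exon lengths and overlaps came from GENCODE M21 (GRCm38) and were matched by gene identifier.

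The members, lists, ratios and tests were chosen with earlier results of these data known. Named were the 10 members, the 4 genes with the smallest p from each list, and the 5 genes most like the members. Of the 14 lists, those for skeletal muscle, adipocytes, macrophages, platelets and liver are given by sums. Skeletal muscle and liver are also given by counts and medians, and platelets by the 2 genes tested. No gene of these lists was picked by p, which departs from that rule. Further genes named for marker checks are Cldn5, Esam, Emcn and Prox1. Alternatives were other scaling, other count filters, DESeq2 1.42.0, the likelihood ratio test, limma-voom (limma 3.58.1) with sample weights, an exact test with one common dispersion, the replicate number as a block, the muscle marker sum as a covariate, other pseudocounts and each library left out. Car3 was taken out of the muscle sum after its values were seen.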

Additional observations from a re-analysis of the deposited data

Results flagged for a closer look

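Among 28 groups of 4 libraries examined, for the 10 genes, their 3 ratios and the summed level of 9 genes, 2 held a library that lay apart from the other 3 of its label by a gap above Dixon's 95% limit. Chance flags about 1 in 20 groups. Cdh5 in KO3 stood at 298.3 CPM, against 236.4, 238.4 and 241.7 CPM in the other KO libraries, and the WT libraries had 265.6 to 290.1 CPM. Pecam1 in WT2 stood at 246.0 CPM, against 205.7, 208.0 and 212.2 CPM in the other WT libraries. KO3 was also the KO library with the lowest sum of skeletal muscle markers other than Car3, at 532.7 CPM, and its part in the Cdh5 value was not tested.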

How the results depend on the processing

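No member passed an adjusted p of 0.05 under any of the 19 alternatives. The count of all genes that passed was 0 with the quasi-likelihood test, 36 with DESeq2, 34 with the likelihood ratio test, 436 with one common dispersion and 0 to 50 with 1 library left out (50 without KO3). For the members, 173 of 190 log2 fold changes under the alternatives kept their sign. With the muscle sum as a covariate Cdh5, Kdr, Tie1 and Vwf turned to 0.038, 0.016, 0.093 and 0.026, and with Car3 left out of it Pecam1, Cdh5, Kdr, Tie1 and Vwf to 0.024, 0.115, 0.079, 0.272 and 0.110. Among other named genes these covariates turned Figf to -0.079 and -0.354 and Notch1 to 0.051 and 0.302, Klf4 to -0.066 and -0.087, Pdpn to -0.515 and -0.697 and Gpihbp1 to 0.066 and 0.181. The sum with Car3 turned Nrp2 to 0.111 and P4ha1 to 0.0066, and the sum without it Hes1 to 0.216 and Aqp1 to 0.046. Nrp2, near 0, turned to 0.0084 with library totals and 0.027 with limma-voom. Egfl7, whose value is near 0, turned to -0.0029 without a count filter, -0.018 with limma-voom, -0.0028 with one common dispersion and -0.0075 with the replicate block. With each library left out, Egfl7 lay between -0.074 and 0.080, Vegfb between -0.031 and 0.234, Pdpn between -0.0067 and 0.436, Nrp2 between -0.074 and 0.092 and Gpihbp1 between -0.180 and 0.013. Des passed the adjusted threshold with DESeq2, the likelihood ratio test, one common dispersion and without KO3. The causes were not tested. Vegfa stayed above 0 under every alternative, from 0.24 to 0.54.

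The log2 Vegfa to Kdr difference lay between 0.384 and 0.599 with each library left out, the Kdr to Flt1 difference between -0.412 and -0.220 and the Tie1 to Tek difference between -0.241 and -0.082. None had an adjusted p under 0.05, which a single ratio at the floor of these exact tests could not reach (0.0857 after adjustment with 4 libraries in each group, and 0.375 for the replicate block). No pairing by replicate number was seen. Same-numbered libraries had correlations of -0.29 to -0.14 in their deviations from the label means. Of the 4 WT libraries, 0 correlated best with the KO library of the same number. These deviations sum to 0 within each label, which constrains the correlations, so this check cannot exclude a pairing. The replicate block called 0 genes and gave Vegfa 0.308. With this depth and the spread between libraries, the 95% intervals of the 9 endothelial genes span 0.708-fold to 1.34-fold. Each interval holds the changes compatible with that gene's values, before adjustment. It does not give the smallest change that the adjusted test over all genes would have called.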
